A study of Homo sapiens with 4 samples.

Results

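The epidermal growth factor (EGF) receptor family was followed here through 8 genes. They are the receptor genes EGFR, ERBB2 and ERBB3 and the ligand genes AREG, EREG, HBEGF, TGFA and BTC, and the set was taken as these symbols with every probe that the platform annotation pairs with them. Of the 8 genes, 7 had a named probe, with 11 probes in all, out of 19090 named genes on the array. No probe was named for the ligand gene AREG, which was not analysed here. The cells carried the label HepG2, an established human hepatic tumour line, and all 4 groups were transfected with a small RNA duplex by the same reagent, INTERFERin. One group received the negative control duplex (NC), which has no homology to the human genome per the labels, one the miR-214 mimic, and one each of the duplexes siPVT1-1 and siPVT1-2, both directed against the long noncoding RNA PVT1. Each group was measured on 1 OneArray Plus array, so no group has a spread of its own, differences between arrays cannot be checked against replicates, and no p-value is given. No probe was paired with PVT1 or with MIR214 in the annotation used here, so neither the knockdown nor the mimic is checked by these arrays.

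ERBB receptors are tyrosine kinases of the cell surface that signal as pairs. EGFR is bound by amphiregulin (AREG), epiregulin (EREG), heparin-binding EGF (HBEGF), transforming growth factor alpha (TGFA) and betacellulin (BTC); ERBB2 has no known ligand of its own and serves as a partner, and ERBB3, a poor kinase, binds neuregulins. The ligands are made as membrane proteins and are released by proteases such as ADAM17, after which the receptors signal through RAS and ERK and through PI3K and AKT. In the liver EGFR and its ligands are known for their part in regeneration, and TGFA and HBEGF stimulate hepatocyte growth.

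The sources used here do not say which arm of miR-214 the mimic carries. Both mature arms are therefore shown, from RefSeq on GRCh38.p14, with bases 2 to 8, the seed through which a microRNA pairs with its targets, in capitals. The 3p arm lies at chr1:172138816-172138837 and the 5p arm at chr1:172138857-172138878, both on the minus strand, and the seeds of the arms differ.
hsa-miR-214-3p: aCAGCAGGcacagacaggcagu
hsa-miR-214-5p: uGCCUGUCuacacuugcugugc
The probe sequences and the sequences of the siPVT1 duplexes were not used here.

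The arrays carried 28264 probes, and the median deposited intensity lay between 784.1 and 926.9 across them. Values were brought to a common distribution by quantile normalization and taken to log2, called the normalized level below. A gene was compared when the mean level of its brightest probe exceeded 9.72, the median of all probes, and 10668 genes were above this filter. Of 8 hepatocyte markers, 2 lay above it (APOA1 and SERPINA1), while albumin (ALB, mean level 6.81) and alpha-fetoprotein (AFP, 8.28) lay under it, so the label HepG2 is used only as given. Above the filter were also 3 of 8 fibroblast markers (COL1A1, DCN and LUM), 2 of 5 endothelial markers, 1 of the 4 blood cell markers with a probe, 3 of the 4 squamous markers with a probe and 3 of 4 general epithelial markers. Of all these markers above the filter, KRT8 was the only one at least 2-fold from NC, with log2 differences of 2.02 for the mimic, 1.89 for siPVT1-1 and 1.86 for siPVT1-2 and an NC level of 8.59, under the filter; its part in the results below was not tested.

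None of the family members above the filter was 2-fold or more apart between any pair of arrays. These were 4 genes: EGFR, ERBB3, HBEGF and TGFA. Their log2 differences from NC ran from -0.17 to 0.37 with the mimic, from -0.34 to -0.11 for siPVT1-1 and from -0.3 to 0.08 for siPVT1-2. Among all genes compared, 4.79% were at least 2-fold apart between the mimic and NC arrays, 2.96% between siPVT1-1 and NC, and 2.53% between siPVT1-2 and NC. Between the mimic and siPVT1-2 arrays the share was 1.67%. With 4 members above the filter, a count of 0 is near these shares, and nothing particular to the family is read from it. In RNA from whole cultures, fewer cells with a transcript and less of it per cell cannot be told apart. The medians over the 4 genes were -0.07, -0.15 and -0.22, against -0.02, 0.01 and -0.01 over all genes compared.

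**Figure D1:**
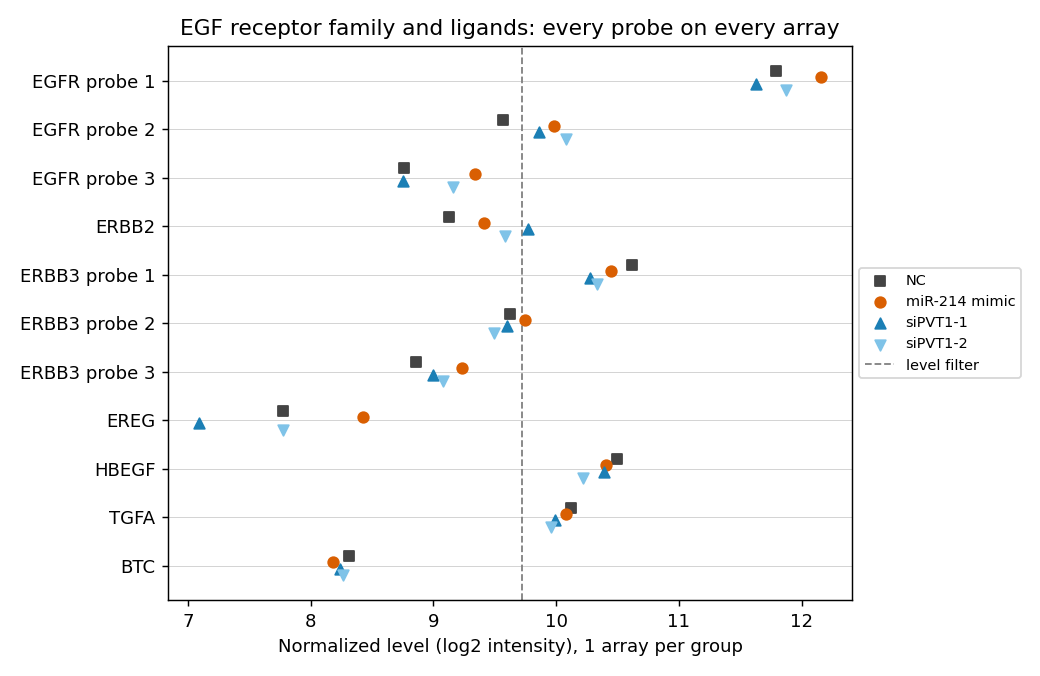
Normalized log2 level of each of the 11 probes of the 7 measured family members on the 4 arrays, 1 point per array, with the dashed line at the level filter of 9.72. Probes are numbered from the brightest by mean level. The points of TGFA and BTC lie close together, while EREG runs from 7.09 with siPVT1-1 to 8.43 with the mimic.

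Among the receptors, EGFR stood highest with the mimic by its brightest probe. This probe had deposited intensities of 3702.1 with NC, 4583.5 with the mimic, 3134.5 with siPVT1-1 and 3655.3 with siPVT1-2. Its normalized levels were 11.79, 12.16, 11.63 and 11.87 in that order, so the mimic array was highest and the siPVT1-1 array lowest. The log2 difference between mimic and NC was 0.37, which is 1.29-fold, and between siPVT1-1 and NC it was -0.16. A second EGFR probe read 9.57 on NC, 9.98 on the mimic, 9.86 on siPVT1-1 and 10.08 on siPVT1-2. The third probe, under the filter, read 8.76, 9.34, 8.75 and 9.16. All 3 EGFR probes were above NC on the mimic array, by 0.37 to 0.58, and all 3 were lower with siPVT1-1 than with siPVT1-2, by log2 differences of -0.41 to -0.22. These signs were the same with median centring, with cyclic loess and with the values as deposited. The difference between siPVT1-2 and NC was 0.08 by the brightest probe and turned to -0.02 with the values as deposited.

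Such differences in EGFR were common among probes of like signal. Within 0.25 log2 units of the mean level of the brightest EGFR probe lay 1417 probes, and 38.3% of them differed more than it did between the mimic and NC arrays. Of the same probes, 38.7% differed more between the arrays of the siPVT1 duplexes. The promoter of EGFR is shown because EGFR is the receptor of every ligand among the 8 genes. Its 250 bases upstream of the annotated start, from RefSeq on GRCh38.p14 at chr7:55018767-55019016 on the plus strand, were 73.6% G or C, against a median of 58.0% over 35116 promoters. A second annotated EGFR start, further downstream, is not shown. Capitals mark matches on either strand to GGGCGG (the GC box), TATAAA (the TATA box), CCAAT (the CCAAT box) or TGACG (the core of the cAMP response element), each searched by its letters and with no overlap between different motifs here.
EGFR promoter: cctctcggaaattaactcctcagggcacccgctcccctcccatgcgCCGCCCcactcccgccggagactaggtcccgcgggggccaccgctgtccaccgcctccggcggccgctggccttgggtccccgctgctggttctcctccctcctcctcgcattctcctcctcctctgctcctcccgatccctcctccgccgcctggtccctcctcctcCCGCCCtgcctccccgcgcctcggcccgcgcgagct
It held 2 GC boxes, a motif found in 42.6% of all promoters of the same length, and none of the other motifs.

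ERBB2, the partner receptor, had 1 probe, under the filter. Its deposited intensities were 622.2 with NC, 666.5 with the mimic, 859.9 with siPVT1-1 and 712.5 with siPVT1-2. The normalized levels were 9.13, 9.41, 9.77 and 9.58, so NC was lowest and siPVT1-1 highest. On the log2 scale ERBB2 was thus above NC by 0.64 for siPVT1-1, by 0.45 for siPVT1-2 and by 0.28 for the mimic. With median centring, cyclic loess and deposited values these differences kept their sign, at 0.47 to 0.62, 0.2 to 0.48 and 0.1 to 0.26.

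ERBB3, the neuregulin receptor, read by its brightest probe 1682.3 on NC, 1379.8 on the mimic, 1228.7 on siPVT1-1 and 1222.0 on siPVT1-2 as deposited. In normalized levels these were 10.62, 10.45, 10.28 and 10.33, with NC highest and the siPVT1 arrays lowest. Its log2 differences from NC were -0.17, -0.34 and -0.3. Further probes, both under the filter, did not share this order. The second gave 0.13, -0.02 and -0.13, and the third 0.37, 0.15 and 0.22, so the probes of ERBB3 disagreed on the sign of the difference from NC. All 3 were higher with the mimic than with the mean of the siPVT1 arrays, by 0.15 to 0.2, a comparison that does not involve NC.

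Of the ligands, HBEGF and TGFA differed little between arrays. HBEGF had deposited intensities of 1554.8, 1329.0, 1327.0 and 1130.4 in the order NC, mimic, siPVT1-1, siPVT1-2, and normalized levels of 10.5, 10.41, 10.39 and 10.22. NC was highest and siPVT1-2 lowest, with a range of 0.27. TGFA had deposited intensities of 1212.4, 1062.8, 1003.1 and 934.4 in that order, and normalized levels of 10.12, 10.08, 9.99 and 9.96, a range of 0.17 before rounding. BTC, under the filter, had deposited intensities of 363.2, 279.4, 297.8 and 272.3 and normalized levels of 8.31, 8.18, 8.24 and 8.26. All these ligands were highest on the NC array, but their largest log2 difference from it was -0.27, for HBEGF with siPVT1-2, where 95% of all genes compared lay between -0.79 and 0.85.

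EREG, the gene of epiregulin, which binds EGFR and ERBB4, showed the widest range of the members, at a dim level. Its 1 probe had deposited intensities of 249.4 on NC, 337.3 on the mimic, 132.7 on siPVT1-1 and 192.5 on siPVT1-2, with normalized levels of 7.77, 8.43, 7.09 and 7.77. The mimic array was highest and the siPVT1-1 array lowest, while NC and siPVT1-2 were equal to 2 decimals only under this normalization. EREG was 0.66 above NC with the mimic and -0.68 from NC with siPVT1-1 on the log2 scale. With siPVT1-2 the difference was 0.01, and it was -0.37 with the values as deposited. Between the mimic and siPVT1-1 it was 1.34, or 2.53-fold, and 1.35 to 1.36 under the other scalings. These are its highest and lowest arrays, a pair picked by the values. Of 1631 probes within 0.25 of the mean level of EREG, 3.8% differed more than EREG between these arrays. The same share was 17.3% between the mimic and NC and 7.5% between siPVT1-1 and siPVT1-2. Because its mean level of 7.76 lay under the filter, EREG was not counted; among the genes compared, 3.02% were at least 2-fold apart between the mimic and siPVT1-1 arrays. EREG is described at this length because of its values. With a floor 4 times as high, above its level on 3 of the 4 arrays, its difference from NC with the mimic was 0.43 and that with siPVT1-1 was 0.00. At that floor siPVT1-1 and siPVT1-2 also differed by 0.00, and the mimic stood 0.43 above their mean.

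The upstream sequence of EREG is shown because this gene varied most. It lies at chr4:74364895-74365144 on the plus strand (RefSeq, GRCh38.p14), and the same motifs are in capitals.
EREG promoter: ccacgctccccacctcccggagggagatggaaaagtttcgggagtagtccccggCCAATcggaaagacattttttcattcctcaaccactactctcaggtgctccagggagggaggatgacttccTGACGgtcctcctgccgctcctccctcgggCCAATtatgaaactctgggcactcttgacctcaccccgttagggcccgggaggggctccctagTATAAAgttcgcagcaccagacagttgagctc
It was 58.0% G or C and held 1 TATA box, 2 CCAAT boxes and 1 cAMP response element core. These letters occur in 10.7%, 32.0% and 21.2% of all promoters of the same length. A match describes the sequence and is no evidence that a factor was bound there in these cells. EREG, AREG and BTC all lie on chromosome 4, and the measured pair EREG and BTC did not share an order of arrays.

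The siPVT1 duplexes were also compared with each other and with the mimic, without the NC array. Between siPVT1-1 and siPVT1-2, 0 of the 4 members above the filter were 2-fold apart, as were 0.497% of all genes compared. The differences ran from -0.25 for EGFR to 0.17 for HBEGF. Between the mimic and the mean of the siPVT1 arrays the count was again 0 of 4, against 1.82% of all genes compared, and the 4 members lay 0.1 to 0.41 above. Over the 11 probes, 9 were higher with the mimic than with the mean of the siPVT1 arrays, while those of ERBB2 (-0.27) and BTC (-0.07) were not. The 9 include 3 probes each of EGFR and ERBB3, which are not separate members. The second EGFR probe stood at only 0.01 in this comparison and turned to -0.02 with cyclic loess. Over all genes compared the median was -0.01 and the median absolute difference 0.2. The share of them above 0 was not counted, so no shift of the family is read from this. EREG had the largest difference in this comparison, 1.0.

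**Figure D2:**
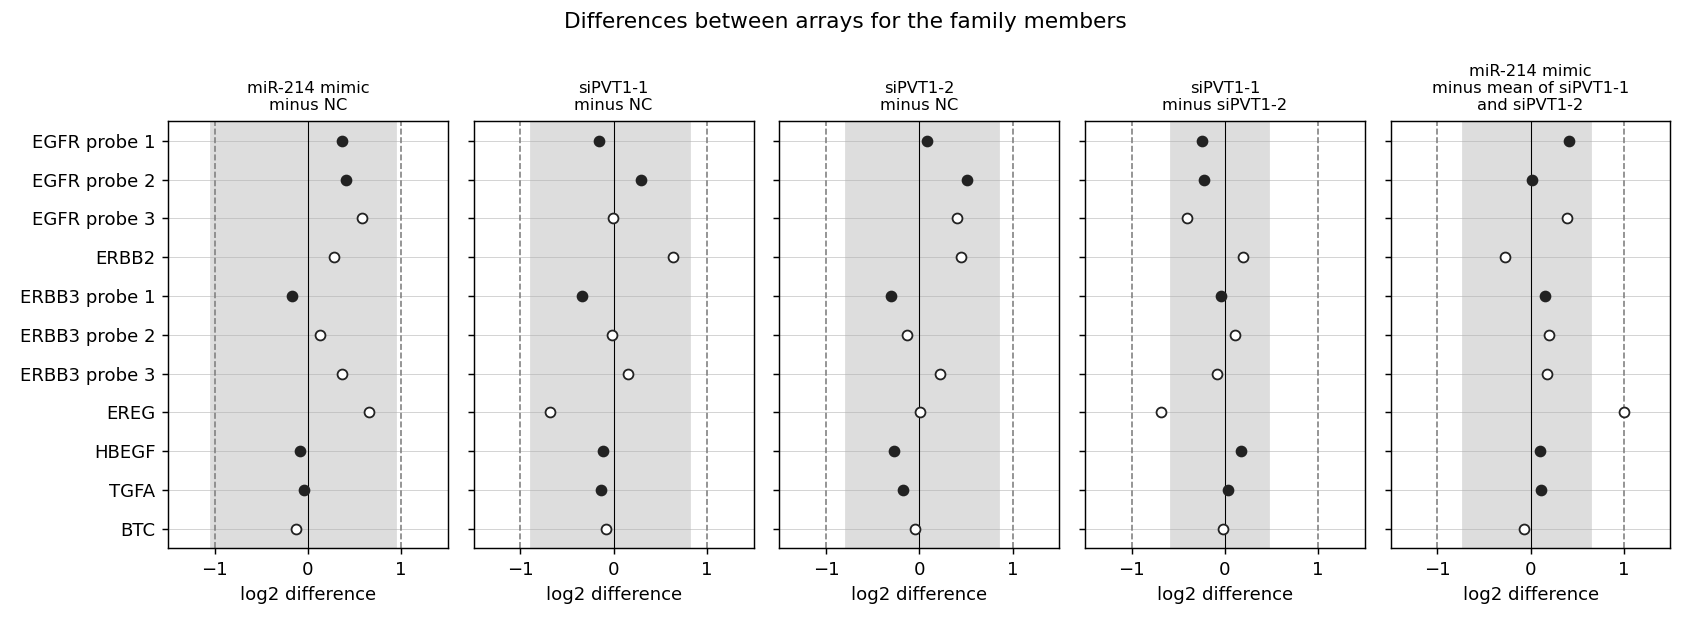
Log2 differences between arrays for the 11 probes of the 7 measured members in 5 comparisons. Filled points are probes above the level filter and open points probes under it; the grey band holds the central 95% of all genes compared, and dashed lines mark 2-fold. Every filled point lies inside the band, and EREG lies outside it in the comparisons of siPVT1-1 with siPVT1-2 and of the mimic with the mean of the siPVT1 arrays.

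A further 7 genes of the family were listed beside the members: the receptor gene ERBB4 and the ligand genes EGF, EPGN, NRG1, NRG2, NRG3 and NRG4. Of these, 4 were above the filter, and ERBB4 was at least 2-fold lower than NC on all 3 treated arrays. Over all genes compared, 2.84%, 1.72% and 1.2% were at least 2-fold lower with the mimic, siPVT1-1 and siPVT1-2. The list's count rests on this 1 gene. The brightest ERBB4 probe read 11.4 on NC, 9.21 on the mimic, 9.87 on siPVT1-1 and 9.25 on siPVT1-2, so the NC array stood apart from the other 3. Its mean of 9.93 passed the filter of 9.72 through the NC array, as the mimic and siPVT1-2 levels lay under it, so ERBB4 entered the counts by the array it is then compared with. The log2 differences were -2.19, -1.53 and -2.15, and with probes averaged they were -0.83, -0.56 and -0.73. A second ERBB4 probe, at 7.45 on NC, gave -0.31, -0.15 and -0.04, and the third lay at the floor on every array, so the drop rests on 1 probe and on 1 NC spot. Without NC, that brightest probe stood 0.62 higher with siPVT1-1 than with siPVT1-2 and at -0.35 with the mimic against the mean of both. Epigen (EPGN), a ligand of EGFR under the filter, read 9.7, 9.37, 8.6 and 8.95, and was -1.1 from NC with siPVT1-1 and -0.74 with siPVT1-2. Above the filter, NRG3 stood at -0.27, -0.37 and -0.68 from NC, and NRG4 at -0.34, -0.31 and -0.4. The medians of the list were -0.3, -0.34 and -0.54, against -0.02, 0.01 and -0.01 over all genes compared. All 4 genes above the filter lay below NC on each treated array, and these values share the 1 NC array.

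Neuregulin 1 (NRG1), a ligand of ERBB3 and ERBB4, gave different readings by probe, and all its 6 probes are described because of this, a choice made after the values were seen. The brightest probe, which stands for the gene in the counts, read 11.68 on NC, 11.6 on the mimic, 11.48 on siPVT1-1 and 11.29 on siPVT1-2. The second probe read 10.61, 11.51, 10.41 and 11.48 in the same order, and the third 10.44, 11.46, 10.0 and 11.15. On the fourth the levels were 9.99, 10.54, 9.96 and 10.58, and on the fifth 9.67, 10.22, 9.57 and 10.27. By these 4 probes the mimic and siPVT1-2 arrays were both higher than the NC and siPVT1-1 arrays, and the brightest probe did not show this. The sixth lay at the floor on every array. Between siPVT1-1 and siPVT1-2 these 4 probes differed by -1.07, -1.15, -0.62 and -0.7, where 95% of all genes compared lay between -0.58 and 0.47. The corresponding differences between the mimic and NC were 0.9, 1.02, 0.54 and 0.55. There 95% of all genes compared lay between -1.04 and 0.94, so only the third probe, at 1.02, lay outside. The signs of both sets of differences were the same with median centring, cyclic loess and deposited values. Which transcripts of NRG1 each probe reads was not analysed here.

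**Figure D3:**
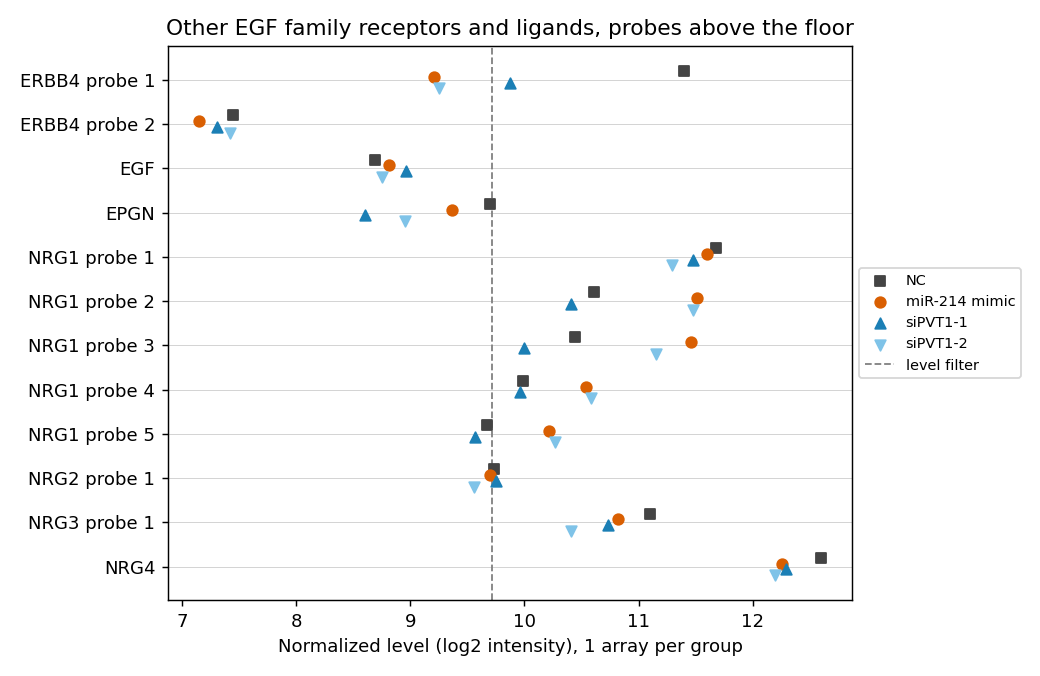
Normalized log2 level on the 4 arrays, 1 point per array, for the probes of the other family receptors and ligands that lay above the floor, with the level filter as a dashed line. NC stands apart for the brightest ERBB4 probe, at 11.4, and NRG1 probes 2 to 5 place the mimic and siPVT1-2 arrays above the NC and siPVT1-1 arrays.

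The genes around the receptors were read from 4 more lists. Of 8 genes of ligand shedding, 7 were above the filter and 0 were 2-fold from NC on any treated array, near the background shares of 4.79%, 2.96% and 2.53%. ADAM17, the main sheddase of several of these ligands and named for that role, stood at -0.16, -0.14 and -0.23 with the mimic, siPVT1-1 and siPVT1-2. TIMP3, an inhibitor of ADAM17, stood at -0.61, -0.28 and -0.63. ADAM15 (0.45, 0.23 and 0.4), ADAM10 (-0.1, 0.41 and 0.3) and RHBDF2, which brings ADAM17 to the cell surface (-0.09, 0.44 and 0.1), were the others with the largest values. The medians of the shedding list were -0.1, -0.14 and -0.01.

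Among 24 adaptors and signal transducers, 17 had a named probe and 16 were above the filter. Of these, 3, 1 and 1 were at least 2-fold from NC with the mimic, siPVT1-1 and siPVT1-2, against 4.79%, 2.96% and 2.53% of all genes compared. The kinase gene AKT1 was at least 2-fold higher than NC on each treated array, by 1.43, 1.13 and 1.25. Its levels were 10.92 on NC, 12.35 on the mimic, 12.05 on siPVT1-1 and 12.17 on siPVT1-2, and a second probe gave 0.96, 0.94 and 1.06. The 3 treated arrays lay close together for AKT1, and NC was low by both probes. PLCG1, which makes second messengers from membrane lipids, was at least 2-fold higher with the mimic (1.08) and stood at 0.55 and 0.72 with the siPVT1 duplexes; its NC level of 9.58 lay under the filter, and with the values as deposited its difference with the mimic was 0.94, within 2-fold. GAB1, the docking protein that links EGFR to PI3K, was at least 2-fold lower with the mimic (-1.54), and stood at -0.36 with siPVT1-1 and -0.24 with siPVT1-2. GAB1 read 13.76 on NC, 12.22 on the mimic, 13.39 on siPVT1-1 and 13.52 on siPVT1-2, so the mimic array stood apart from the other 3. Against the mean of the siPVT1 arrays it was -1.24 with the mimic, and a second, dim GAB1 probe gave -0.34 against NC; with both probes averaged the difference was -0.94. The medians of the list were 0.00, 0.1 and 0.07.

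Feedback inhibitors of the receptors and of ERK had 8 of 15 genes above the filter, and 0 were 2-fold from NC. At the shares over all genes compared, 4.79%, 2.96% and 2.53%, a count of 0 of 8 is near the background. Their medians were -0.26, -0.26 and -0.25, and 6, 7 and 7 of the 8 lay below NC with the mimic, siPVT1-1 and siPVT1-2. Over all genes compared the medians were -0.02, 0.01 and -0.01, and the median absolute differences 0.28, 0.23 and 0.25. The share of all genes below NC was not counted. All these counts share the 1 NC array and are not separate observations. The largest values among the 8 genes were those of DUSP4, an ERK phosphatase (0.49, -0.76 and 0.31), SOCS4 (-0.27, -0.75 and -0.33) and the ubiquitin ligase gene RNF41, which acts on ERBB3 (-0.7, -0.54 and -0.65). DUSP4 was 2-fold apart between the siPVT1 duplexes, at -1.07, but its second probe gave 0.29. ERRFI1, whose product binds and inhibits EGFR, lay under the filter by its mean and was not counted. It read 9.87 on NC, 9.11 on the mimic, 8.04 on siPVT1-1 and 8.79 on siPVT1-2, with differences from NC of -0.76, -1.84 and -1.08. LRIG1, a membrane inhibitor of ERBB receptors and also under the filter, read 8.38, 7.83, 7.47 and 7.06, with -0.55, -0.91 and -1.32.

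Genes that respond to ERK signalling did not move one way. Of 12, 11 were above the filter. By the brightest probe, 1 was at least 2-fold lower with the mimic, 2 with siPVT1-1 and 1 with siPVT1-2, and 0 were higher. Over all genes compared, 2.84%, 1.72% and 1.2% were at least 2-fold lower, and the list's counts rest on 1 or 2 genes. The transcription factor gene ETV5 was lower on all 3 arrays (-1.18, -1.64 and -1.7), and its second probe gave -1.32, -1.04 and -0.92. ETV4, of the same group of factors, read 10.26 on NC, 10.62 on the mimic, 9.21 on siPVT1-1 and 9.73 on siPVT1-2. It was at least 2-fold lower with siPVT1-1 (-1.05), stood at -0.54 with siPVT1-2 and at 0.35 with the mimic, and was 1.15 higher with the mimic than with the mean of the siPVT1 arrays. EGR1 (0.9, 0.27 and 0.72) and FOS (0.56, 0.97 and 0.81), both early response factors, lay above NC on each array without passing 2-fold, which FOS passed with siPVT1-1 under median centring. The medians of the list were 0.35, -0.1 and 0.00. Because all differences from NC share that 1 array, values of ETV5 or AKT1 on the 3 treated arrays are not separate observations of a change.

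**Figure D4:**
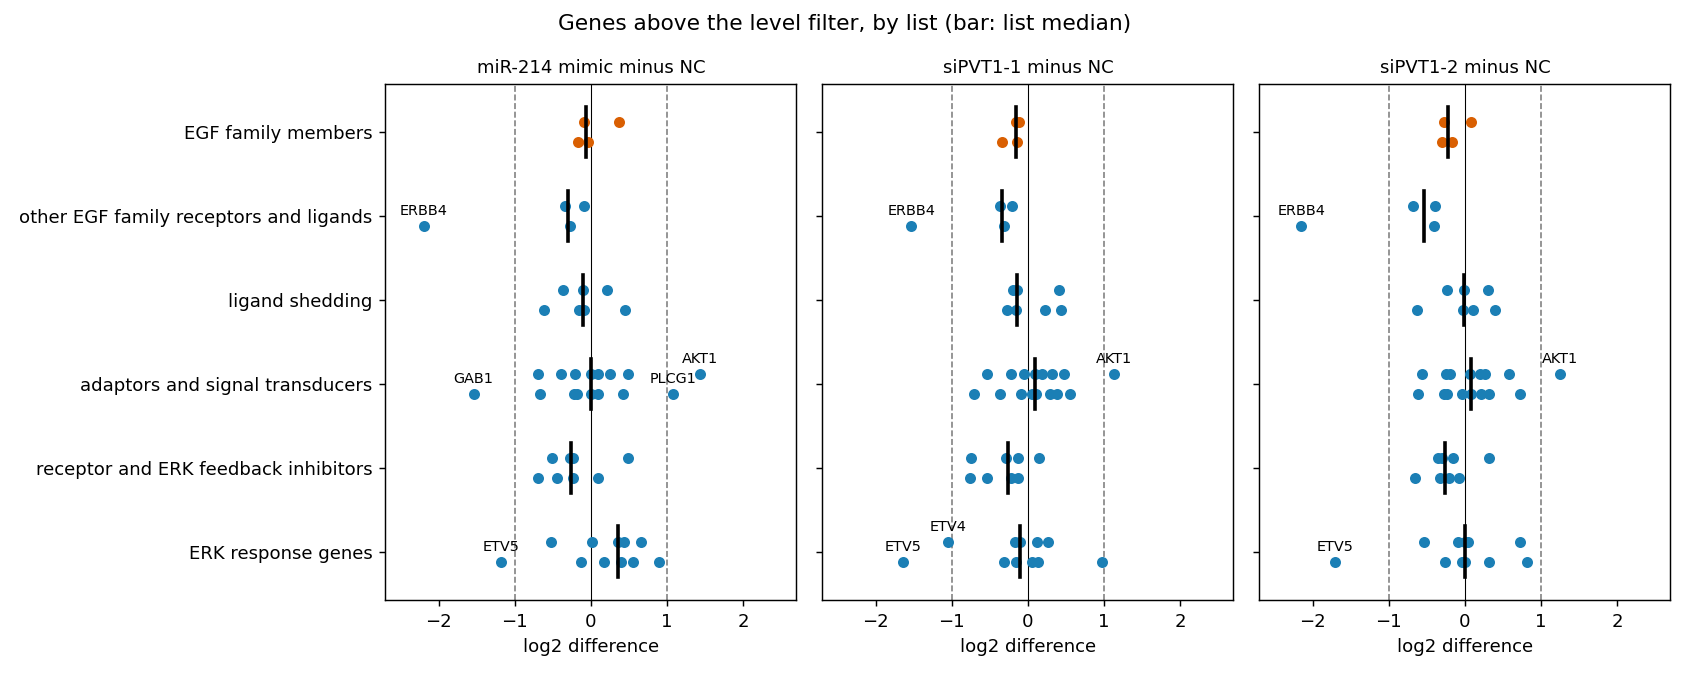
Log2 differences from NC on the mimic, siPVT1-1 and siPVT1-2 arrays for genes above the level filter in 6 lists, 1 point per gene by its brightest probe, with list medians as bars and 2-fold as dashed lines. The 4 family members lie within 2-fold on every array, and the named genes are those past it.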

How the data were processed

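Total RNA was amplified, labelled with Cy5 and hybridised in 1 colour, per the labels' protocols. The authors deposited linear probe intensities; values below 0 show that background was already subtracted, and no source used here names the software. Quantile normalization used limma 3.58.1 (R 4.3.3); values under 64 were then raised to that floor before log2, and further steps used Python 3.11.15. Of the deposited values, 8.1 to 11.7% per array lay below the floor. Of the 28264 probes, 25893 had 1 gene symbol in the platform annotation, updated by Entrez identifier to RefSeq symbols of GRCh38.p14, 0 had several and 2371 had none. The brightest probe by mean stood for a gene, and a gene at the floor on an array compared was not counted there. Genes were called by size, at least 2-fold apart, because each group has 1 array. On simulated data with known differences, the mean estimated difference was checked, while the numbers of genes called were recorded without a check. Precision is limited by the single array per group, and dim probes are the least certain.

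The family members, the pathway lists and the comparisons were chosen with earlier results of these data known. Named genes were all members with all probes, and of each list those at least 2-fold from NC or otherwise up to 4 with the largest difference. A rule to name genes of like pattern applied to members above the filter and 2-fold from NC; 0 members met it. Alternatives were median centring, values as deposited, cyclic loess, other filters, probes averaged, floors 4 times lower and higher, and thresholds of 1.5-fold and 3-fold. The siPVT1 arrays in place of NC were added after the data were seen. Promoters were matched by symbol, for 7 of 8 members.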

Additional observations from a re-analysis of the deposited data

How the results depend on the processing

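The count of family members at least 2-fold apart was 0 in all 5 comparisons under every alternative run but 1: without a level filter it was 1 for the mimic against the mean of the siPVT1 arrays, through EREG. The 3-fold threshold and the filter at the 75th percentile could not raise a count of 0, so their outcome was fixed. In the pathway lists, with 46 genes compared, the counts were 5, 4, 3, 1 and 2. They are for mimic, siPVT1-1 and siPVT1-2 against NC, siPVT1-1 against siPVT1-2 and the mimic against the mean of the siPVT1 arrays. Over all genes compared the shares were 4.79%, 2.96%, 2.53%, 0.497% and 1.82%, and no result about the lists is read from these counts. In that order the list counts were 11, 8, 10, 2 and 4 at 1.5-fold, and 1, 1, 2, 0 and 0 at 3-fold. They were 1, 0, 0, 0 and 1 when genes had to pass the 75th percentile, and 2, 2, 1, 0 and 1 with probes averaged. Without a level filter the siPVT1-2 count was 5. With siPVT1-1 or siPVT1-2 in place of NC, an alternative chosen after seeing the data, the mimic count was 3 or 1. The shares over all genes compared were then 3.02% and 1.67%. The stricter filter changed only which genes were tested (24 of 46). The calls lost with it were those of genes that lay under it. The mimic was compared with NC over 10667 genes, over 17346 without a level filter and over 5646 at the 75th percentile. The counts that follow therefore do not share 1 total. Over all genes compared, the mimic count of 511 was 889 without a level filter, 230 at the 75th percentile, 2014 at 1.5-fold and 83 at 3-fold. In that order, the siPVT1-1 count of 316 was 599, 148, 1405 and 73, the siPVT1-2 count of 270 was 564, 123, 1416 and 59, the count of 53 between the duplexes was 203, 10, 354 and 21, and the count of 194 for the mimic against their mean was 468, 51, 855 and 48. Median centring moved the median of all genes compared to 0.108, 0.114 and 0.157 above NC and the split with the mimic from 208 higher and 303 lower to 351 and 203, with siPVT1-1 from 133 and 183 to 184 and 146, and with siPVT1-2 from 142 and 128 to 277 and 78. With values as deposited the siPVT1-1 split was 94 and 215 and the siPVT1-2 split 95 and 161. No called single gene changed sign. For 13 named genes, 29 of 460 recomputed differences moved by more than 0.2. Changing the level filter leaves a gene's difference as it was, and changing the floor moves only dim probes. Many of the 460 were therefore fixed in advance, and the share is no measure of stability. Probes under the filter, EREG and BTC among them, are limited by signal over background. No paired analysis was possible because each group has 1 array.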

Other observations

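Further probes of some pathway genes differed from the brightest probe in sign or only in size, and these were picked after their values were seen. A second probe of the kinase gene AKT2 read 11.53 on NC, 7.33 on the mimic, 7.37 on siPVT1-1 and 7.14 on siPVT1-2, while the brightest AKT2 probe read 10.28, 10.27, 10.22 and 9.99. The third AKT2 probe read 7.88, 8.58, 8.28 and 8.3, higher than NC on each treated array. The drop by the second probe thus rests on 1 probe and on 1 NC spot. A second, dim probe of SOS2, which loads RAS with GTP, read 9.54, 8.61, 8.31 and 8.15, and the brightest read 11.28, 10.58, 10.56 and 10.65. Both SOS2 probes lay below NC on each treated array and differed only in size. The third probe of the protease gene ADAM9 read 6.36, 8.15, 6.61 and 7.24, near the floor, where the brightest read 13.25, 13.47, 13.05 and 13.24. Among ERK response genes, a second IER2 probe under the filter read 9.24, 8.84, 10.25 and 10.07, and the brightest read 12.4, 12.79, 12.53 and 12.44. For PHLDA1 a second probe, also under the filter, read 8.61, 9.48, 7.53 and 7.97, and the brightest read 10.38, 10.4, 10.21 and 10.34. The PHLDA1 probes shared the sign of each difference from NC and differed in size.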
